A study of Mus musculus with 16 samples.

Results

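The genes described here encode the proteins of the cytosolic ribosome. They were taken from the array's annotation as every spot that is not a control and whose gene name is Rpl or Rps followed by a number and at most 1 letter, or is Rplp0, Rplp1, Rplp2 or Rpsa. The rule found 195 spots, which are 186 distinct probes for 81 of the 34741 named genes on the array. Total RNA came from spleen B cells of AM14 mice, whose B cells carry an antigen receptor against IgG, and all 4 genotypes share that receptor. The genotypes were WT, Tlr7-/- (here Tlr7 KO), Tlr9-/- (Tlr9 KO) and Tlr7/9-/- (double KO), and cells were read unstimulated (0 h) and after 6, 24 and 42 h with PL2-3, an IgG against chromatin. Each of the 16 combinations was read on 1 array, with the sample in Cy5 and a pool of unstimulated B cell RNA of all 4 genotypes in Cy3. The sources used here give no age, sex or number of mice behind an array. All cultured cells had received PL2-3, and its effect and that of culture itself cannot be told apart.

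A cytosolic ribosome is built from a small (40S) subunit, whose proteins are named Rps, and a large (60S) subunit, whose proteins are named Rpl, each present in about equal numbers of copies per ribosome. The mRNAs of these proteins carry a pyrimidine tract at their 5′ end and are among the most abundant in any cell, and their use by ribosomes is controlled together by mTOR. Resting B cells are small and make little protein, and antigen receptor or Toll-like receptor stimulation makes them grow and build ribosomes before they divide. Several of the genes have near-identical copies elsewhere in the genome, and a few have a paralog expressed under other conditions.

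The 6 probes that carry most of what follows are shown first, each the brightest probe of its gene: the member with the lowest log ratio after stimulation (Rps27) beside its paralog (Rps27l), then the other members with clear rises (Rps2, Rpl15) and falls (Rps29, Rpl13a). They are 60 bases long, printed 5′ to 3′, with their positions on the mm9 build as the array's annotation gives them. Capitals mark the longest stretch, where it is at least 20 bases, that a probe of another name on the same array also holds.
Rps27: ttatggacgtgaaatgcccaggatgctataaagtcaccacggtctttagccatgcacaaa
Rps27l: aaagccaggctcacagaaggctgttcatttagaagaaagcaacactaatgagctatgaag
Rps2: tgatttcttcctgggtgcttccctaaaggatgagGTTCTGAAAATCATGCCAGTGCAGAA
Rpl15: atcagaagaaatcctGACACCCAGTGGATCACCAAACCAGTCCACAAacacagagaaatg
Rps29: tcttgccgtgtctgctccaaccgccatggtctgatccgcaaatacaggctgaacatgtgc
Rpl13a: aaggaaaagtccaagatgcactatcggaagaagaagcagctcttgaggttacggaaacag
The Rps27 probe was placed at chr9:114891672-114891731 on the minus strand, and the Rps27l probe at chr9:66795486-66797176 on the plus strand, a span of 1691 bases that its 60 bases cross by skipping the sequence between. The Rps2 probe lies at chr17:24857583-24857642 (plus), the Rpl15 probe at chr14:19101657-19101716 (minus), the Rps29 probe at chr2:172335075-172335134 (minus) and the Rpl13a probe at chr7:52381388-52381529 (minus).
In the RefSeq table Rps27 is a gene of chromosome 3, and chromosome 9 holds Rps27rt, a gene for which Rps27 is an older name. All 4 Rps27 probes were placed on chromosome 9 and all 3 Rps29 probes on chromosome 2, whereas the table has Rps29 on chromosome 12. Counting Rpl13, Rps4x and Rpl36, 11 of the 186 probes were placed on another chromosome than their gene. At least 20 bases were shared with a probe of another name by 81 of the 186 probes and by 35 of the 79 brightest probes tested, so the signal of many members may include copies of the gene.

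Ribosomal protein genes were among the brightest on the arrays. The mean log2 brightness of the members' probes had a median of 16.38 against 7.80 over all genes, and the median member was brighter than 99.3% of genes. Of the 268 genes at a brightness of 16 or more, 58 (21.6%) were members. No spot was saturated, and the brightest probes of 78 of the 80 members measured over the 16 arrays were well above background in Cy5 on every array. The exceptions were the paralogs Rpl39l, well above background on 10 of 16 arrays, and Rpl10l. The third paralog, Rpl3l, was not well above background on any array. Rpl10l and Rpl3l were not tested over time, which left 79 members.

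Whether the group as a whole stood higher or lower than at 0 h was not settled by the arrays, because it turned with the scaling. Values below are log2(Cy5/Cy3) after loess, which centres each array at every brightness, unless another scale is named. On that scale the median difference between 24 h and 0 h was -0.01 over the 79 members and 0.01 over all genes. With each array centred only on its median the members' median was 1.46, and that of all genes was 0.22. With the scanner software's processed signals it was 0.20, against 0.01 over all genes. In the same order the 3 scales gave -0.18, 0.77 and 0.15 at 6 h, and -0.03, 0.72 and 0.14 at 42 h. Median centring put the median of all genes at 0.22 at the first 2 times and 0.08 at the last. The order of the members among themselves was nearly the same on all scales. Across the 79 members, whose genes are not independent replicates, the 24 h differences on the loess scale had a Spearman correlation of 0.93 with those after median centring and of 0.98 with the processed signals. The results that follow therefore concern which members stood above or below the others, and a direction against 0 h is the direction on the loess scale.

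**Figure D1:**
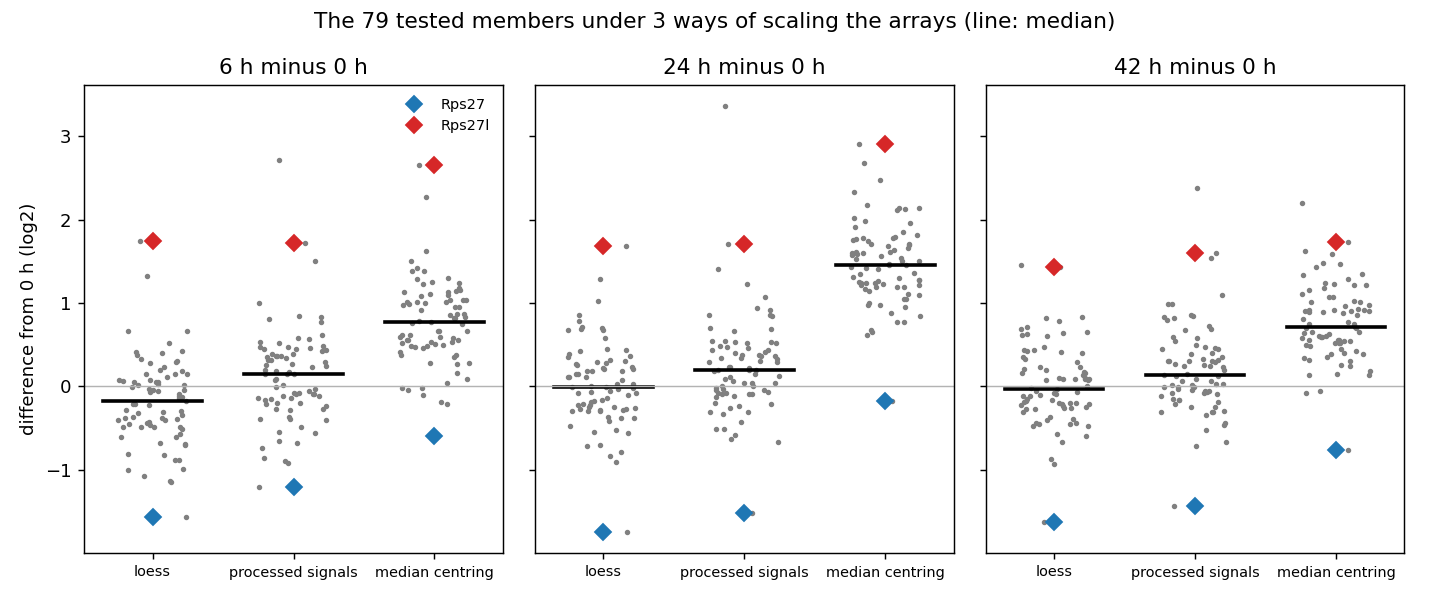
Difference from 0 h (y axis, log2) of the 79 tested members at 6, 24 and 42 h under 3 ways of scaling the arrays (x axis), with 1 point per member, the median as a line, and Rps27 and Rps27l as diamonds. The cloud moves up as a whole from loess (median -0.01 at 24 h) to median centring (1.46), while Rps27 stays at its lower end.

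The log ratios of the members lay closest together at 0 h, which the reference sets in part, since the Cy3 pool holds unstimulated RNA of the same genotypes. At 0 h their SD across members was 0.20 to 0.24 on the 4 arrays, and at 6 h it was 0.47 to 0.54. Over all genes it went from 0.18 to 0.28 at 0 h to 0.84 to 0.94 at 6 h. Genes were called at an adjusted p below 0.05 with limma, adjusted over all 22678 genes tested, in a fit of the 12 arrays of WT, Tlr7 KO and Tlr9 KO in which the genotypes stand in for replicates. Of 79 members, 12 rose and 35 fell between 0 and 6 h (22.7% and 23.7% of all genes tested, 46.5% in either direction). At 24 h, 20 rose and 16 fell (22.6% and 25.8% of all genes, 48.4% in either direction), and at 42 h, 20 rose and 17 fell (17.2% and 20.5%, 37.6% in either direction). After median centring, by contrast, 50 members rose and 0 fell at 6 h (35.2% and 11.3% of all genes). On that scale 78 rose and 0 fell at 24 h (34.8% and 10.4%), and 43 rose and 1 fell at 42 h (16.8% and 11.9%). With the processed signals 23 rose and 13 fell at 6 h (21.3% and 23.3% of all genes). From these signals 28 rose and 7 fell at 24 h (21% and 25.2%), and 23 rose and 6 fell at 42 h (15.3% and 19.9%). Leaving out Tlr7 KO or WT, which leaves 2 genotypes, brought the 35 falls at 6 h to 20 and 19, and the 20 rises at 24 h to 10 without Tlr7 KO.

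**Figure D2:**
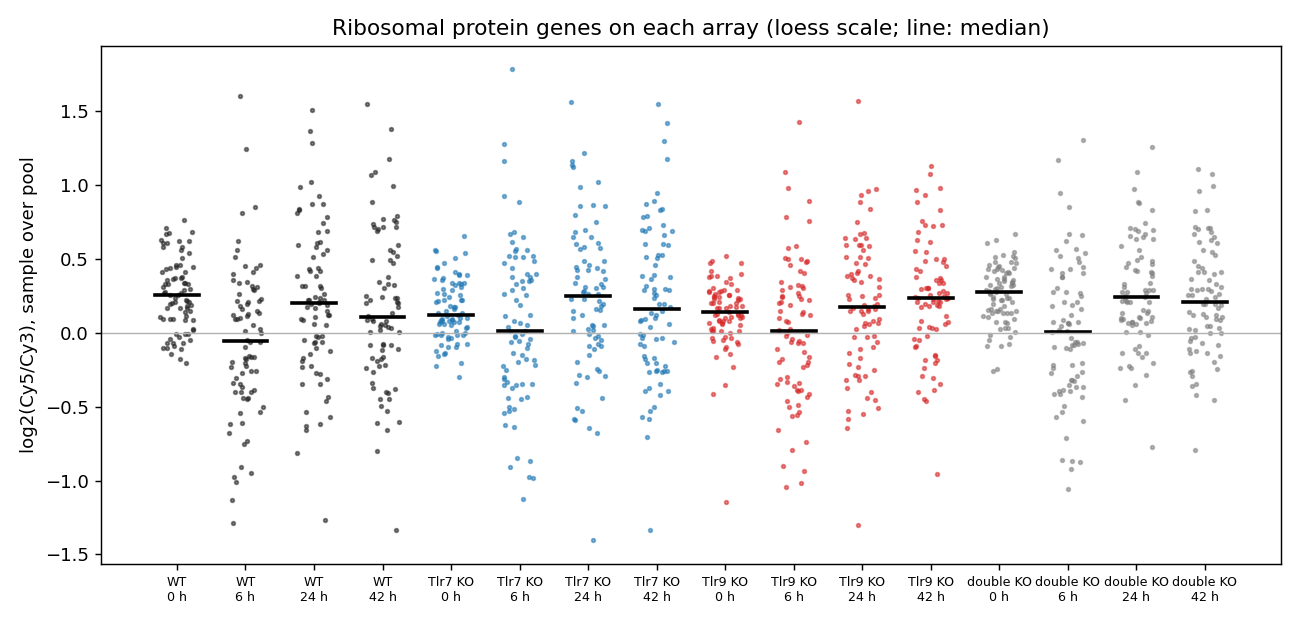
Log2(Cy5/Cy3) (y axis, loess scale) of the members on each of the 16 arrays (x axis: genotype and time), with 1 point per member and the median as a line. The points lie closest together on the 4 arrays at 0 h, whose RNA resembles the reference pool, and farther apart on every stimulated array.

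On the loess scale the step from 6 to 24 h was upward for the members that were called. Between 6 and 24 h, 26 of 79 members rose and 0 fell (14% and 17.8% of all genes, 31.9% in either direction), with a median of 0.21 against -0.01 over all genes. The count fell to 4 rises without WT, to 4 without Tlr7 KO and to 4 with the processed signals (11.2% of all genes). After median centring it was 37 (12.6% of all genes). With each array centred on the members' own median, an alternative chosen after the data had been seen, the step was not one-sided: 5 rose and 10 fell from loess values, 3 and 4 from median-centred values, and 4 and 5 from processed signals. Among the 35 members lower at 6 h were 19 not called at 24 h, 1 (Rpl36a) higher at 24 h, and 12 lower at all 3 times. Neither these patterns nor the step on the centred scales were counted over all genes. Between 24 and 42 h limma called 0 members in either direction (2.09% and 3.56% of all genes, 5.65% in either direction). An unadjusted p below 0.05 was found for 4 members and for 5113 of the 22678 genes tested. After median centring 33 members were lower at 42 h than at 24 h (20.3% of all genes). A difference smaller than 0.5 in size was found for 57 members at 6 h, 59 at 24 h and 61 at 42 h. Small differences were also common over all genes, whose quartiles were -0.33 and 0.34 at 6 h, -0.37 and 0.34 at 24 h, and -0.29 and 0.26 at 42 h.

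To set the level of the group aside, each array was also centred on the members' own median, starting from each of the 3 scales. At 24 h, 11 members were above the group at an adjusted p below 0.05 on all 3 scales (Rps27l, Rps2, Rpl15, Rpl29, Rplp0, Rpl3, Rps12, Rps26, Rpl7a, Rps27a and Rpl10a), and 13 were below it (among them Rps27, Rps29, Rpl13a, Rps24, Rps15, Rps19, Rps9, Rpl17, Rpl21, Rpl35a, Rpl39 and Rps3). The same counts were 11 and 12 at 6 h and 11 and 10 at 42 h. No count over all genes was made on these centred scales, so the counts do not set the members apart from other genes. The 3 scales come from the same arrays and probes. Centring takes out the shift between them and places members on both sides of the median by construction. Agreement over the scales is therefore largely built in and is not independent support. Each member stands here by its brightest probe. On the loess scale Rpl13a, Rpl17, Rpl21, Rpl39 and Rps3 also had a dimmer probe called higher at 24 h than at 0 h.

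**Figure D3:**
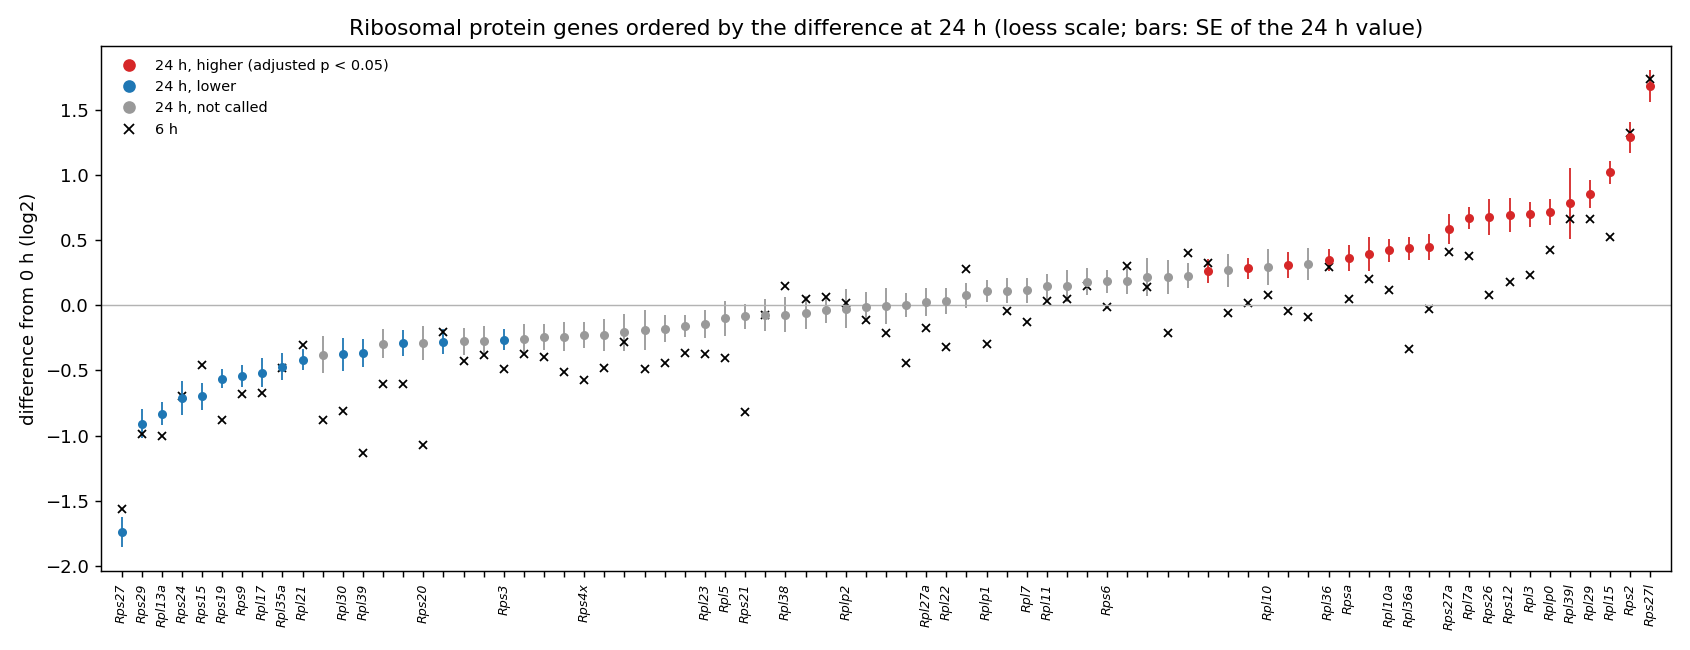
Difference between 24 h and 0 h (y axis, log2, loess scale; bars are the SE) of 77 of the 79 tested members, ordered by that difference, with the 6 h difference as crosses and names under the members the text describes. Rps27 (-1.74) and Rps27l (1.68) stand at the ends, and the crosses of Rps20, Rps21 and Rpl39 lie well below their 24 h points.

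Rps27 was the member with the lowest log ratio to the pool on every stimulated array, although its probe is among the brightest of the members. Its protein is a zinc-binding protein of the 40S subunit. On the 4 arrays at 0 h it read 0.54 in WT, 0.34 in Tlr7 KO, 0.37 in Tlr9 KO and 0.48 in double KO. At 6 h the same genotypes gave -1.28, -1.12, -1.05 and -1.06, at 24 h -1.27, -1.40, -1.30 and -0.77, and at 42 h -1.33, -1.33, -0.95 and -0.79. No stimulated array overlapped the 0 h arrays, and the double KO stood nearest to them at 24 and 42 h. Relative to 0 h Rps27 fell by 1.57 at 6 h, by 1.74 at 24 h (SE 0.115, adjusted p = 4.04e-06) and by 1.62 at 42 h. The other 3 Rps27 probes gave -1.75 to -1.89 at 24 h. After median centring the 24 h difference was -0.17, and with the processed signals it was -1.52.

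Rps27l, whose protein differs from that of Rps27 at a few residues and whose gene is a known target of p53, moved the other way. At 0 h it read 0.02, -0.08, -0.35 and -0.03 in WT, Tlr7 KO, Tlr9 KO and double KO. In the same order it read 1.60, 1.78, 1.42 and 1.30 at 6 h, then 1.51, 1.56, 1.57 and 0.63 at 24 h, and 1.55, 1.42, 0.93 and 0.83 at 42 h. Every stimulated array stood above every 0 h array. Rps27l rose by 1.74 at 6 h, 1.68 at 24 h (SE 0.125, adjusted p = 7.04e-06) and 1.44 at 42 h, and after median centring the 24 h difference was 2.91. Its single probe shared no stretch of 20 bases with a probe of another name. The difference between the log ratios of Rps27l and Rps27, from which any scaling shift common to both drops out, lay between -0.72 and -0.41 at 0 h, between 2.36 and 2.91 at 6 h, between 1.40 and 2.97 at 24 h and between 1.62 and 2.88 at 42 h. After median centring it lay between -1.07 and -0.62 at 0 h and between 0.88 and 2.33 at 24 h. The double KO had the lowest value at 24 h (1.40) and at 42 h (1.62), followed at 42 h by Tlr9 KO (1.89).

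**Figure D4:**
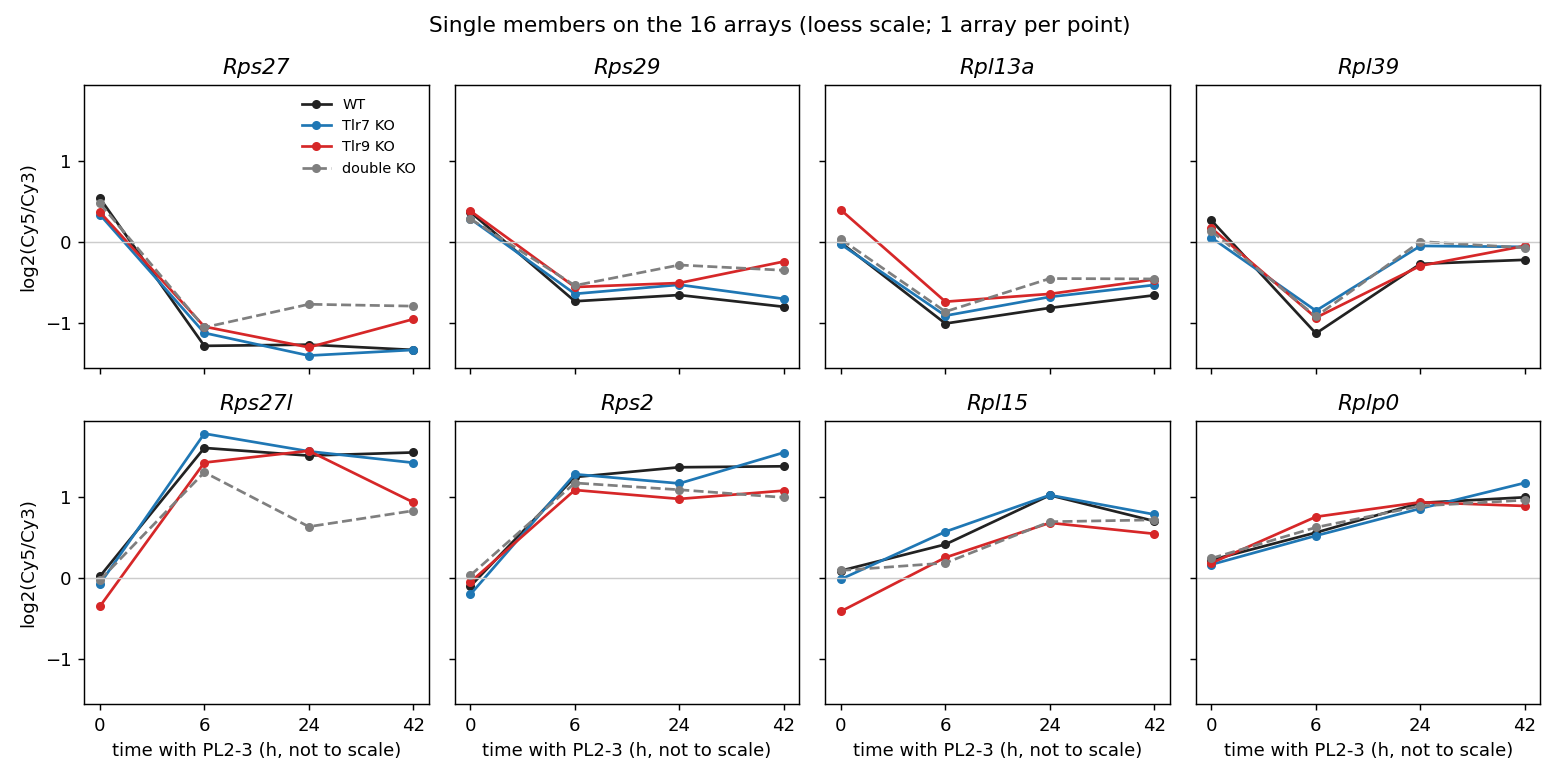
Log2(Cy5/Cy3) (y axis, loess scale) of 8 members at 0, 6, 24 and 42 h with PL2-3 (x axis, not to scale), with 1 array per point and 1 line per genotype. Rps27, Rps29 and Rpl13a drop by 6 h and stay low, Rpl39 drops at 6 h and comes most of the way back by 24 h, and Rps27l, Rps2, Rpl15 and Rplp0 rise in all 4 genotypes.

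Among the other rising members, Rps2 had the largest difference. It encodes the 40S protein uS5 and read -0.10, -0.21, -0.05 and 0.03 at 0 h in WT, Tlr7 KO, Tlr9 KO and double KO. At 6 h it read 1.24, 1.28, 1.08 and 1.17, at 24 h 1.37, 1.17, 0.97 and 1.09, and at 42 h 1.38, 1.55, 1.08 and 0.99. The rise was complete by 6 h (1.32), and the differences at 24 h (1.29, SE 0.12, adjusted p = 2.52e-05) and 42 h (1.46) were close to it. The gene's second probe gave 1.26 at 24 h, although the annotation placed it elsewhere on chromosome 17. Rpl15, a 60S protein, rose by 0.53 at 6 h and 1.02 at 24 h (SE 0.09, adjusted p = 1.93e-05). Its values at 24 h were 1.02, 1.02, 0.68 and 0.69, against 0.09, -0.02, -0.42 and 0.09 at 0 h, with no overlap. Rpl29 rose by 0.67, 0.85 and 0.82 at 6, 24 and 42 h. Rpl3, Rps12 and Rps26 were not called at 6 h (0.23, 0.18 and 0.08) and rose by 24 h (0.70, 0.69 and 0.68). The 8 members higher at all 3 times were Rps27l, Rps2, Rpl15, Rpl29, Rpl7a, Rplp0, Rps27a and Rpl36, a pattern that was not counted over all genes.

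The falling members included Rps29, another small zinc-binding protein of the 40S subunit, and Rpl13a of the 60S subunit. Rps29 read 0.37, 0.29, 0.38 and 0.29 at 0 h in WT, Tlr7 KO, Tlr9 KO and double KO, and -0.66, -0.53, -0.51 and -0.29 at 24 h. All stimulated arrays lay below the 0 h arrays. It fell by 0.99 at 6 h, 0.91 at 24 h (SE 0.112, adjusted p = 1.37e-04) and 0.93 at 42 h, and its other probes gave -0.81 and -0.73 at 24 h. Rpl13a read -0.01, -0.03, 0.40 and 0.03 at 0 h and -0.82, -0.68, -0.64 and -0.45 at 24 h, again with no overlap, and it fell by 0.83 at 24 h (SE 0.0918, adjusted p = 7.08e-05). The other Rpl13a probes rose at 24 h (0.62 and 0.49), and the mean of all its probes was 0.091. Rps24 and Rps15 fell by 0.71 and 0.70 at 24 h, and Rps19 by 0.56. After median centring each of these 5 members was above its 0 h value at 24 h (0.62 for Rps29, 0.78 for Rps24, 0.77 for Rps15, 0.88 for Rps19 and 0.65 for Rpl13a). They were still below the median member, and only Rps27 was below 0.

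In another pattern, on the loess scale, a dip at 6 h had closed fully or in part by 24 h. Rpl39, a very short 60S protein that lines the exit tunnel, read 0.27, 0.05, 0.17 and 0.14 at 0 h, then -1.13, -0.85, -0.94 and -0.92 at 6 h, and -0.27, -0.05, -0.30 and 0.01 at 24 h. Its fall at 6 h was 1.14 (SE 0.109, adjusted p = 2.43e-05), and it rose by 0.77 between 6 and 24 h (adjusted p = 0.00103), which left it lower than at 0 h by 0.37 (-0.37, adjusted p = 0.0192). Rps20 fell by 1.07 at 6 h and Rps21 by 0.82, both of the 40S subunit, and neither was called at 24 h (-0.29 and -0.08). Rpl36a fell by 0.34 at 6 h and was higher than at 0 h by 0.44 at 24 h. Its other probes gave 0.005 and -0.31 at 6 h, so the dip was not seen on all of them. After median centring the 6 h difference of its brightest probe was 0.56. For Rpl39, Rps20 and Rps21 the 6 h differences were -0.185, -0.102 and -0.013 after median centring, and -0.92, -0.65 and -0.89 with the processed signals. The size of the dip against 0 h thus turned with the scaling. On all 4 arrays of Rpl36a at 6 h (-0.36, -0.30, -0.44 and -0.39) the value lay below the 0 h arrays (0.10, 0.04, -0.23 and -0.07), and at 24 h (0.42, 0.42, 0.38 and 0.45) above them.

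Between the subunits, 40S members lay lower than 60S members. At 6 h the median difference was -0.43 over 32 tested 40S members (4 rose, 19 fell) and -0.05 over 44 tested 60S members outside the stalk (7 rose, 15 fell). At 24 h the medians were -0.20 and 0.11, with 7 rises and 8 falls in the 40S and 12 rises and 8 falls in the 60S. The gap was of similar size after median centring (0.53 and 0.86 at 6 h) and with the processed signals (-0.10 and 0.26 at 6 h), though the direction against 0 h was not the same. Both subunits held rising and falling members, so no test of the gap over members is given.

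**Figure D5:**
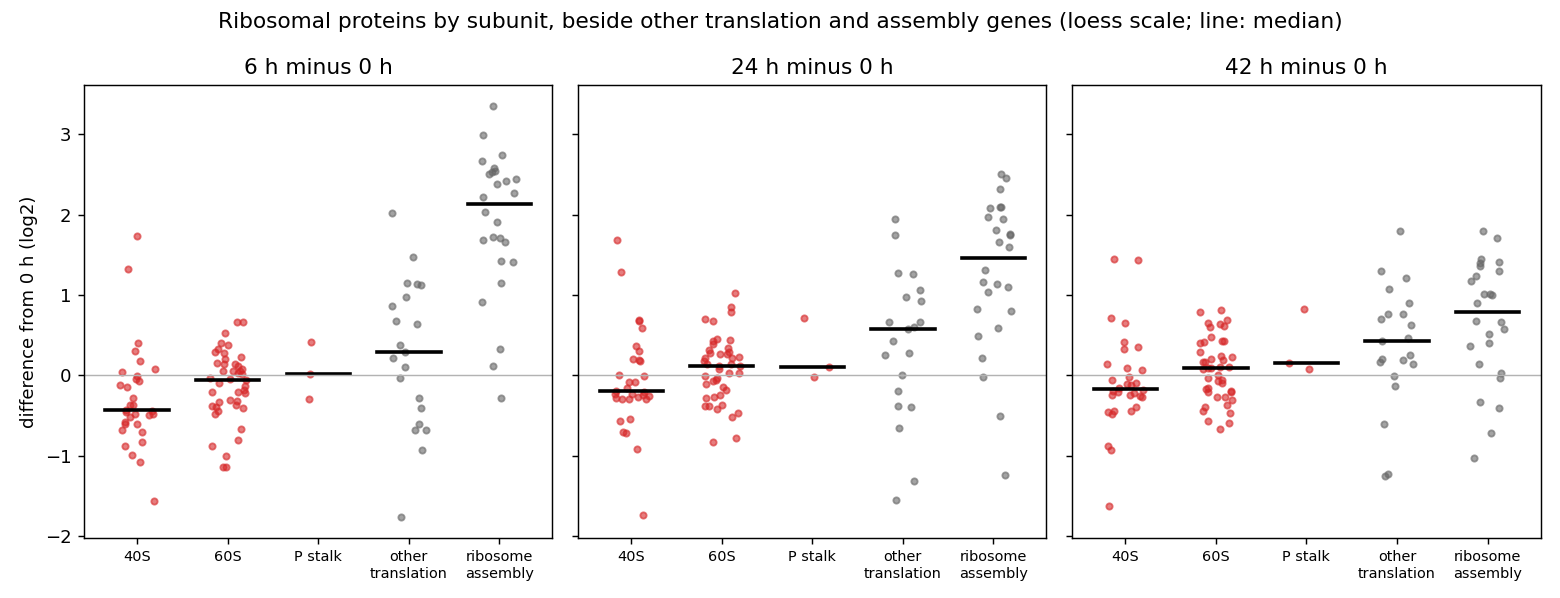
Difference from 0 h (y axis, log2, loess scale) at 6, 24 and 42 h of the 40S, 60S and P stalk members (red), of 21 other translation genes and of 26 ribosome assembly genes (grey), with 1 point per gene and the median as a line. The assembly genes lie highest at 6 h (median 2.13) and come down with time, and the members' medians lie near 0 on this scale (they are 0.77, 1.46 and 0.72 after median centring).

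The acidic stalk of the 60S subunit, which recruits elongation factors, is made of Rplp0, Rplp1 and Rplp2, and its 3 genes did not move alike. Rplp0, the base of the stalk, read 0.22, 0.16, 0.18 and 0.24 at 0 h, 0.56, 0.52, 0.75 and 0.62 at 6 h, 0.93, 0.86, 0.93 and 0.89 at 24 h, and 0.99, 1.17, 0.89 and 0.96 at 42 h. The 4 genotypes lay close together at each time. Rplp0 rose by 0.42 at 6 h (adjusted p = 0.00752), 0.72 at 24 h (SE 0.103, adjusted p = 3.56e-04) and 0.83 at 42 h, and its other probes gave 0.65 and 0.65 at 24 h. Rplp1 fell by 0.30 at 6 h and was not called at 24 h (0.11). Rplp2 was not called at any time (0.01, -0.02 and 0.08). Rpsa, the laminin receptor precursor that sits on the 40S subunit, was not called at 6 h (0.05) and rose by 0.36 at 24 h and 0.41 at 42 h.

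Several members have known roles outside the ribosome. Rpl5, Rpl11 and Rpl23 bind Mdm2 and can stabilise p53, and by their brightest probes none of them was called at 24 h (-0.10, 0.15 and -0.14), although Rpl5 and Rpl23 fell at 6 h (by 0.40 and 0.37). Of the 3 Rpl23 probes a dimmer one rose at 24 h (by 0.65) and 0 fell. In the same cells Mdm2 fell by 0.49 at 24 h, and Trp53 was not called (0.11). Another p53-related gene, Cdkn1a, read 0.04, 0.09, 0.09 and 0.22 at 0 h in WT, Tlr7 KO, Tlr9 KO and double KO. In the same order it read 1.67, 1.48, 0.68 and 0.97 at 6 h, and 1.11, 0.595, 2.73 and -0.29 at 24 h. At 42 h Cdkn1a stood above its 0 h value in WT and Tlr7 KO only. Activity of p53 was not tested. Rps6, the substrate of the S6 kinases, was not called at any time by its brightest probe (-0.01, 0.19 and 0.09). Of its 3 probes a dimmer one rose at 24 h (by 1.31) and 0 fell. Rps3, which also takes part in DNA repair and NF-κB signalling, fell by 0.49 at 6 h and 0.26 at 24 h. Rps19, the gene most often mutated in Diamond-Blackfan anaemia, fell by 0.88 at 6 h. Rps26, another gene of that disease, rose by 0.68 at 24 h. Rps27a, which encodes ubiquitin fused to a 40S protein, rose by 0.59 at 24 h. Rpl38, needed for translation of a subset of developmental mRNAs, was not called (0.15, -0.07 and -0.17). Rpl10, which joins the 60S subunit last, was called at 42 h alone among the 3 times (0.48, adjusted p = 0.0236). The difference between times was not called for Rpl10.

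Paralogs were measured unevenly. Rpl39l, a paralog best known from the testis, rose by 0.79 at 24 h (SE 0.272, adjusted p = 0.0383) but passed the background threshold on 1 of 4 arrays at 0 h, where its values were -0.04, 0.08, -1.15 and -0.05. The single low array was that of Tlr9 KO. Without that genotype the difference was 0.35 (adjusted p = 0.00954), and without Tlr7 KO or WT it was 1.006 and 0.999 and not called (adjusted p = 0.0775 and 0.0848). With the processed signals it was 3.36, so its size was not settled. Rpl22 was not called at 24 h (0.03), and its paralog Rpl22l1, outside the set, rose by 0.58. Rpl7 was not called (0.12), whereas Rpl7l1, a protein of ribosome assembly, rose by 1.75. Rpl36a and Rpl36al rose by 0.44 and 0.28. Rps4x fell by 0.57 at 6 h and was not called at 24 h (-0.23).

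Different probes of 1 gene did not always move together. In 57 members at least 2 probes were tested, and in 41 of these all probes had the same sign at 24 h. In 6 members (Rpl13a, Rpl17, Rpl21, Rpl30, Rpl39 and Rps3) probes were called in opposite directions. How often the probes of other genes disagree was not counted, so this is not shown to be a trait of the members. For Rpl13a the brightest probe gave -0.83 and the others 0.62 and 0.49 at 24 h, while all 3 fell at 6 h (-1.004, -0.701 and -0.790). Of the 7 Rpl17 probes 5 fell, 1 was not called and 1 rose by 1.39 (SE 0.248, adjusted p = 0.00125). With the processed signals the sign still differed between probes in all 6 members, and after median centring in 0.

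In 5 of these 6 members the probes that rose had a mean log2 brightness below 12, and in Rpl13a they stood at 13.24 and 13.10. Among probes other than the brightest, 19 lay below 12, a value chosen after the data had been seen, and 17 of them rose and 0 fell at 24 h (21% and 22.6% of all probes of that brightness), with a median of 0.98 against 0.01. Counting only the 15 that were well above background on all 3 arrays at 0 h, 14 rose. The 84 other probes at or above that brightness had a median of -0.08. One of the 19, singled out after the values were seen, is an Rpsa probe at chr9:120040967-120041026 (mm9). It read 0.10, -0.12, -0.19 and -0.14 at 0 h and 1.62, 1.94, 1.59 and 1.46 at 24 h in WT, Tlr7 KO, Tlr9 KO and double KO, with no overlap. At 42 h the same genotypes read -0.09, 1.47, 1.68 and 1.34, so WT lay within the range of the 0 h arrays. The probe was well above background in Cy5 on 3 of 4 arrays at 42 h. It rose by 1.79 at 24 h (SE 0.347, adjusted p = 0.00206), against 0.36 for the brightest Rpsa probe. After median centring the gap between dim and bright probes was small, with medians of 1.57 for the 19 dim probes and 1.46 for the brightest probes, against 0.17 for all dim probes. With the processed signals the medians were 1.02 and 0.20. Which transcripts the dim probes detect was not tested.

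No difference between genotypes was called for any member. Among stimulated arrays, limma called 0 of 79 members for Tlr7 KO against WT (0% of 23145 genes higher, 0.00432% lower), 0 for double KO against Tlr9 KO (0.00864% and 0.0346%, together 0.0432%), 0 for Tlr9 KO against WT (0.0259% and 0.0259%, together 0.0518%) and 0 for double KO against the other 3 genotypes (0.929% and 0.385%, together 1.31%). At an unadjusted p below 0.05 the numbers were 4, 1, 10 and 12 of 79. Over all 23145 genes they were 430, 1370, 2141 and 4536 in the same order. The first 2 of these comparisons lie within a slide each, and fits of 1 slide alone also called 0 members, with 4 and 0 at an unadjusted p below 0.05. Tlr9 KO and double KO shared 1 slide, and WT and Tlr7 KO the other, so presence of Tlr9 and slide cannot be told apart. The difference in response between double KO and the other 3 genotypes was also called for 0 of 79 members (0.0127% and 0.0253% of 23683 genes, together 0.038%). An unadjusted p below 0.05 was found for 4 members and for 1934 of the 23683 genes.

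The smallest adjusted p-value of a member in these comparisons was that of Rps27l. Rps27l was lower in double KO than in the other 3 genotypes by 0.56 on the log2 scale (-0.56, SE 0.133, adjusted p = 0.0772). Next came Rpl39l (0.24, adjusted p = 0.102), Rps27 (0.36, SE 0.103, adjusted p = 0.115) and Rpl17 (0.33, adjusted p = 0.12), all with higher values in double KO and none called. The matching difference in response was -0.67 for Rps27l (SE 0.265, adjusted p = 0.576), and the smallest p-value of that comparison was that of Rpl27a (-0.54, adjusted p = 0.56). Between Tlr9 KO and WT the smallest p-value was that of Rps24 (0.35, SE 0.079, adjusted p = 0.302). The members were less spread out on the double KO arrays at 24 and 42 h, where their SD was 0.36 and 0.38, than on the WT arrays (0.51 and 0.52) and the Tlr7 KO arrays (0.51 and 0.52). Tlr9 KO lay between them at 24 h (0.46) and near double KO at 42 h (0.39). The SD of all genes was also lowest in double KO at 24 h (0.60, against 0.84 to 0.87 in the other 3), while at 42 h it was 0.71 in double KO and 0.66 to 0.79 in the other 3. Each of these values is from 1 array and was not tested. On the loess scale, of 79 members with a value on all arrays 40 were lower than at 0 h in all 4 genotypes at 6 h and 13 were higher (30.5% and 29% of all genes), and at 24 h these numbers were 23 and 27 (28.2% and 26.3%). After median centring they were 1 and 61 at 6 h (16.2% and 46.4% of all genes), and 0 and 75 at 24 h (14.5% and 37.5%).

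Other genes of ribosome building and translation are given for comparison, with no test of the difference from the members. Ribosome assembly factors, 26 genes such as nucleolin (Ncl), nucleophosmin (Npm1) and subunits of RNA polymerase I, had a median difference of 2.13 at 6 h, when 23 rose and 0 fell, and of 2.92 after median centring and 2.25 with the processed signals (members: -0.18, 0.77 and 0.15). At 24 h the median was 1.46 (20 rose, 2 fell), 2.41 after median centring and 1.57 with the processed signals (members: -0.01, 1.46 and 0.20), and between 6 and 24 h 20 fell and 0 rose, with a median of -0.59, at the same step at which 26 members rose. After median centring that step had 3 falls and a median of -0.45 among assembly factors. Among 21 other translation genes, 13 rose and 4 fell at 24 h. Those that fell included Fau (-1.55), which encodes a ribosomal protein fused to a ubiquitin-like sequence, Tpt1 (-1.31) and Eif3f (-0.39). Elongation factors Eef1g and Eef1b2 rose by 1.27 and 0.98, and Eef1a1 was not called (0.00). After median centring 19 of the 21 rose and 0 fell. Of 12 tested genes on a list of upstream genes, 6 rose and 2 fell at 6 h, and 5 rose and 3 fell at 24 h. Between 6 and 24 h 1 of them rose and 7 fell. Among the rising ones, Myc rose by 4.81 at 6 h and 3.49 at 24 h. Larp1, which holds back translation of mRNAs with a 5′ pyrimidine tract, rose by 2.24 and 1.19.

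Promoter windows of RefSeq genes (build GRCm38.p6, 250 bases before to 50 after each start) were listed for 60 of the 81 members. CTTTCC, on either strand, was found in the windows of 32 of the 60 (53.3%), against 29.3% of all 27025 genes with a window, and CCGGAAG, the core of ETS factor sites, in 25 (41.7%), against 9.93%. For CACGTG, the E-box bound by Myc and Max, the share was 10% of members and 8.09% of all genes. These are letter matches and were not tested. The starts of 3 members with different responses are shown. Each line gives the 40 bases before and 10 after the start, on the strand of the gene, with capitals for CTTTCC.
Rps27: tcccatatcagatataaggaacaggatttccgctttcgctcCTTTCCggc
Rpl15: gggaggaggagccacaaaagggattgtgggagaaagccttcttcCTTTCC
Rps27l: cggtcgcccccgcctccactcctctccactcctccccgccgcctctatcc
They lie at chr3:90213639-90213688 (minus strand), chr14:18270977-18271026 (minus) and chr9:66946046-66946095 (plus) of GRCm38.p6. Rps27 and Rpl15 hold the motif at the start, and Rps27l holds it elsewhere in its windows and not in these 50 bases. The Rps27 start is that of the gene on chromosome 3, whereas the Rps27 probes were placed on chromosome 9, so it cannot be tied to the fall measured for Rps27.

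The arrays as a whole had 37.4% to 62.7% of spots well above background in Cy5, with the lowest share in Tlr9 KO at 0 h. Rps18 had no value on that array, and its fit used 11 arrays. On the brightest Tlr7 probe the arrays of the genotypes without Tlr7 read -0.73 to 0.41 and the others 0.32 to 1.71. The Tlr9 probe did not separate the genotypes (-1.14 to 0.04 without Tlr9, -0.84 to -0.03 with it), and no source used here says whether it lies in the deleted part. Among B cell markers, Cd79a, Cd79b and Ms4a1 were at -0.10 to 0.48 relative to the pool at 0 h, and all 7 markers listed fell at 6, 24 and 42 h. Of 5 erythroid markers, 5 fell at each time, of 7 myeloid markers 7, 6 and 5 fell at 6, 24 and 42 h, of 5 T cell markers 4, 3 and 2, and of 4 NK cell markers 4, 4 and 3. Of 4 plasma cell markers 1 fell at each time, and 2, 0 and 1 rose. Whether other cells in the 0 h samples had a part in the members' differences was not tested, and fewer cells of a type and less RNA per cell cannot be told apart in such samples.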

How the data were processed

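RNA from AM14 B cells of 4 genotypes at 4 times was hybridised on 16 Agilent arrays of 2 colours, 1 per genotype and time, against a common pool, with no dye swap. Scans were quantified with Agilent's Feature Extraction software (10.1.1.1), per the file headers. The deposited spot intensity of each colour, before correction, was used. The deposited series table was found to hold log10 values that match the processed Cy5/Cy3 ratio within 5e-04, and the processed signals served as an alternative. Other deposited columns used are flags, which hold other values (0 or 1).

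In R 4.3.3 with limma 3.58.1, background was corrected with normexp (offset 50) and arrays were normalized by loess. Control spots were dropped, outlier spots (0.537%) set to missing and repeated probes averaged. Probes well above background in Cy5 or Cy3 on 3 or more arrays of a fit were kept, and the brightest of these stood for its gene. Symbols came from the RefSeq table through accession, symbol or older symbol, and otherwise from the files. Time was tested with genotype as a term, and genotype with time as a term, with lmFit and eBayes, 2-sided, and Benjamini-Hochberg adjustment over all genes. The genotypes or times stand in for replicates, so p-values measure the spread between these arrays. On simulated data, 100 genes were changed by 1 log2 unit, another 100 by 2, and all others were left unchanged. Of those changed by 1, the 24 h comparison recovered 71%, that of double KO with the others 87%, and that of their responses 43%. In the data 48.4% of genes were called at 24 h, so the 71% does not give the recovery of the real 24 h test.

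The members, gene lists and tests were chosen with earlier results of these data known. Genes were named by rule: the stalk genes and Rpsa, the 6 largest and 6 smallest differences at 24 h, the 4 and 4 at 6 and 42 h, paralogs, members with roles beyond the ribosome, members with opposed probes, and any called in a genotype comparison. Others are named within lists of counts. Some genes that the rule covers are not reported here.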

Additional observations from a re-analysis of the deposited data

How the results depend on the processing

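No pairing of arrays by replicate number was possible, because each genotype and time has 1 array and the labels give no replicate numbers. The time fits hold genotype as a term, so they compare times within genotypes. Counts of members depended on the scaling, with the cause not tested. Median centring gave 50 higher and 0 lower at 6 h, 78 and 0 at 24 h, 43 and 1 at 42 h, and 33 lower between 24 and 42 h. The processed signals gave 23 higher and 13 lower at 6 h, 7 lower at 24 h, 6 lower at 42 h and 4 higher between 6 and 24 h, where no background correction gave 15. Centring on the members (chosen after the data were seen) left 20, 13 and 15 lower at 6 h from loess, median-centred and processed values, with 19 higher at 6 h from loess values and 11 higher at 24 h and 11 at 42 h from median-centred values. Between 6 and 24 h it gave 5, 3 and 4 higher and 10, 4 and 5 lower, and from median-centred values 1 member, Rpl39l, was higher in double KO than in the others. With the double KO in the fit 26 were lower at 24 h and 1 between 6 and 24 h, and with the mean of all probes 1 was lower in each of the steps from 6 to 24 h and from 24 to 42 h.

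Leaving out 1 genotype, which leaves 2, gave 5 to 11 higher and 19 to 34 lower at 6 h, 10 to 23 and 10 to 19 at 24 h, 10 to 18 and 6 to 24 at 42 h, and 4 to 27 higher between 6 and 24 h. The low ends came without WT or Tlr7 KO.

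Under median centring the 24 h difference turned positive for Rpl13a (0.65), Rpl23 (1.35), Rpl38 (1.41), Rpl39 (1.1), Rpl5 (1.26), Rplp2 (1.502), Rps15 (0.77), Rps19 (0.88), Rps24 (0.78), Rps29 (0.62), Rps3 (1.05) and Rps4x (1.17), and Rpl13a at 42 h (0.14). The mean of all probes gave 0.091 for Rpl13a at 24 h, 0.381 at 42 h and 0.054 for Rpl39 at 24 h. Centring on the members turned Rpl39l at 24 h to -0.64 from median-centred values.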
